A study of Mus musculus with 12 samples.

Results

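Of the 30678 transcripts measured well enough to be compared in mouse back skin, 209 were higher in every wild-type (WT) library than in every library of Tcrb-deficient mice, and were on average at least 3 times as high. These 209 transcripts are described here. They were chosen by their own values in CPM, the estimated reads of a transcript divided by all reads of its library and multiplied by 1e+06. A transcript was kept when its mean over the 12 libraries was 0.5 CPM or more and when each of the 4 groups had at least 1 library above 0. It was then selected when its lowest value in the 6 WT libraries lay above its highest value in the 6 Tcrb-deficient libraries and the ratio of the means was 3 or more. The difference between WT and Tcrb-deficient skin is therefore given as a description, with no test.

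All mice were on the FVB background, and polyA RNA of whole back skin was sequenced in 3 libraries per group. The groups were untreated WT mice (UT WT), WT mice treated on the skin with DMBA (WT DMBA), Tcrb-/- mice treated with DMBA (Tcrb-/-), and Tcrb-/- mice that were given Tregs i.v. before the same treatment (Tcrb-/- + Treg). The deposited design gives 200 ng of DMBA weekly for 6 weeks, while the methods of the study give a first dose followed by lower weekly doses, in another unit, so the amount is uncertain. The transferred CD3+CD4+CD25+ cells were purified with isolation kits from WT donors, from the spleen by the design and methods and from spleen and lymph nodes (CD25hi) by the study's legend. Each Tcrb-deficient mouse had been treated with DMBA, so between UT WT and Tcrb-deficient skin genotype and treatment cannot be told apart, whereas WT DMBA and Tcrb-/- share the treatment. The WT DMBA libraries carry an untreated entry in their treatment field and were grouped by their titles. Whether the libraries of a group are from different mice is not stated, so a p value here reflects how these libraries vary, which may be technical.

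Tcrb is the gene of the T cell receptor β chain, and mice without it lack αβ T cells but keep γδ T cells. αβ T cells of the skin include regulatory T cells, which express FOXP3, lie close to hair follicles, and restrain inflammation. DMBA is a polycyclic aromatic hydrocarbon that skin cells convert into a form that binds DNA, and it is widely used to start skin tumors in mice. Back skin holds keratinocytes, hair follicles that cycle between growth and rest, sebaceous glands, fibroblasts, fat, muscle and immune cells, and a bulk library mixes the RNA of them all.

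The deposited values are per transcript of the FVB/NJ strain, and the files do not pair these transcripts with genes. The 14 reference files at hand hold 0 of the identifiers, so neither gene names, roles and sequences of the 209 transcripts nor Tcrb itself and skin cell markers could be looked up. Transcripts are named by identifier in a few cases and otherwise by their length in nucleotides (nt). Libraries held 17312566 to 31701620 estimated reads, and no pair of replicates was alike within sampling noise (chi-square per transcript of 22.0 to 108).

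The 209 transcripts together took about 1% of the reads of untreated WT skin and a smaller share in each of the other groups. Their share was 1.09%, 0.968% and 1.14% of reads in UT WT, and 0.473%, 0.436% and 0.454% in WT DMBA. In Tcrb-/- it was 0.156%, 0.229% and 0.254%, and in Tcrb-/- + Treg 0.162%, 0.200% and 0.229%. The 4 groups were thus ordered, with UT WT above WT DMBA and both above the Tcrb-deficient groups, whose libraries overlapped each other. The rule fixes the step from WT to Tcrb-deficient. In whole skin, fewer cells of a type and less RNA per cell cannot be told apart.

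1 transcript of 1700 nt held a large part of these reads. It had 5867, 4366 and 5917 CPM in UT WT, 1936, 2125 and 2112 in WT DMBA, 705, 1231 and 1337 in Tcrb-/-, and 1000, 1073 and 1550 in Tcrb-/- + Treg. Without it, the sum over the other members was 5276 ± 180 CPM in UT WT, 2483 ± 282 in WT DMBA, 1042 ± 174 in Tcrb-/- and 762 ± 156 in Tcrb-/- + Treg (mean ± SD, n = 3 each). The rule puts WT above Tcrb-deficient skin for any subset of members. Only the order of group means within each genotype could thus have changed, and it did not. The libraries of the 2 Tcrb-deficient groups still overlapped, at 858 to 1204 CPM in Tcrb-/- and 619 to 929 in Tcrb-/- + Treg. The level of the median transcript had the same order of group means, with the same step fixed by the rule and the Tcrb-deficient libraries again overlapping. It was 9.29 ± 0.61 CPM in UT WT, 5.20 ± 0.77 in WT DMBA, 1.93 ± 0.43 in Tcrb-/- and 1.13 ± 0.51 in Tcrb-/- + Treg (mean ± SD, n = 3 each).

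**Figure D1:**
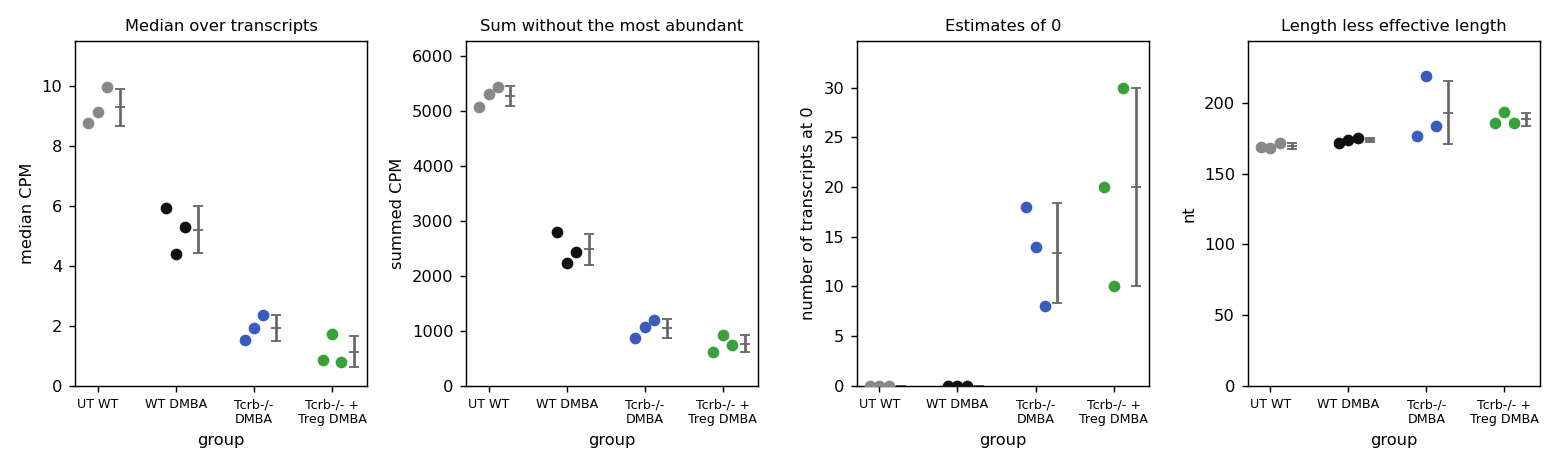
Median CPM of the 209 transcripts, their summed CPM without the 1700-nt transcript, the number of them estimated at 0, and transcript length less effective length (nt) are plotted for each library (points) with the group mean ± SD (bars, n = 3). By the rule, the WT libraries lie above the Tcrb-deficient ones in the first 2 panels and hold no estimate of 0. In the last panel they lie lower (168 to 175 nt against 177 to 219 nt).

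Some properties of the members and of the libraries moved with the same split. No member was at 0 in a WT library, which the rule fixes, since each WT value must lie above each Tcrb-deficient value. In the Tcrb-/- libraries 8 to 18 members were at 0, and in Tcrb-/- + Treg 10 to 30. The rule bears on low read numbers in the same way. Members with under 10 reads numbered 0 in each UT WT library, 2 to 5 in WT DMBA, 39 to 54 in Tcrb-/- and 41 to 78 in Tcrb-/- + Treg. Transcript length less effective length, which follows from the fragment lengths the quantification used, was 168 to 175 nt in WT and 177 to 219 nt in Tcrb-deficient libraries (transcripts of 3000 nt or more). The 184 transcripts that the reversed rule chose, those higher in all Tcrb-deficient libraries, took 1087 to 2657 CPM in WT and 6480 to 67813 CPM in Tcrb-deficient libraries, which lowers every other CPM in the latter. The part of these properties in the result was not tested.

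The ratio of WT to Tcrb-deficient mean CPM had a median of 3.96 over the 209 transcripts, with quartiles of 3.32 and 5.32 and a highest value of 86.5. It reached 5 in 61 of them and 10 in 21. The median log2 ratio over all kept transcripts was not 0 but 0.16 on the CPM scale, and it was 1.98 over the members. After TMM scaling, which sets the bulk of transcripts to equal levels, these medians were 0.00 and 1.84, and 178 of the 209 remained without overlap while 158 kept a ratio of 3 or more. All 209 were also without overlap in the deposited TPM values, which account for length.

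The gap between the genotypes was often narrow. The lowest WT value was a median of 1.26 times the highest Tcrb-deficient value, it reached 2 times in 8 transcripts, and its highest value was 3.49. Just inside the limits, the ratios of means were 3.004, 3.008 and 3.012, and just outside 2.997, 2.992 and 2.985. The 3 members with the narrowest gap had a lowest WT value of 1.001, 1.002 and 1.003 times the highest Tcrb-deficient one, and the nearest transcripts outside had 0.9997, 0.998 and 0.993. The 3 members with the lowest mean had 0.506, 0.533 and 0.541 CPM, and 0.497, 0.491 and 0.489 CPM was not enough. A further 43 transcripts met both criteria but had a mean under 0.5 CPM, 9 were left out only because a group was at 0 in all its libraries, 1130 kept transcripts did not overlap but had a ratio under 3, and 818 had a ratio of 3 or more but overlapped.

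The gap was set mainly by WT DMBA and by Tcrb-/-. Among the 6 WT libraries, the lowest value came from WT DMBA replicate 2 in 95 transcripts, replicate 3 in 47 and replicate 1 in 36, and from a UT WT library in 16, 8 and 7. Among the Tcrb-deficient libraries, the highest came from Tcrb-/- replicates 3, 2 and 1 in 73, 48 and 21 transcripts, and from Tcrb-/- + Treg replicates 2, 3 and 1 in 37, 23 and 7. In 132 transcripts each UT WT library was at 2 times the highest Tcrb-deficient library or more, and in 13 this held for each WT DMBA library.

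**Figure D2:**
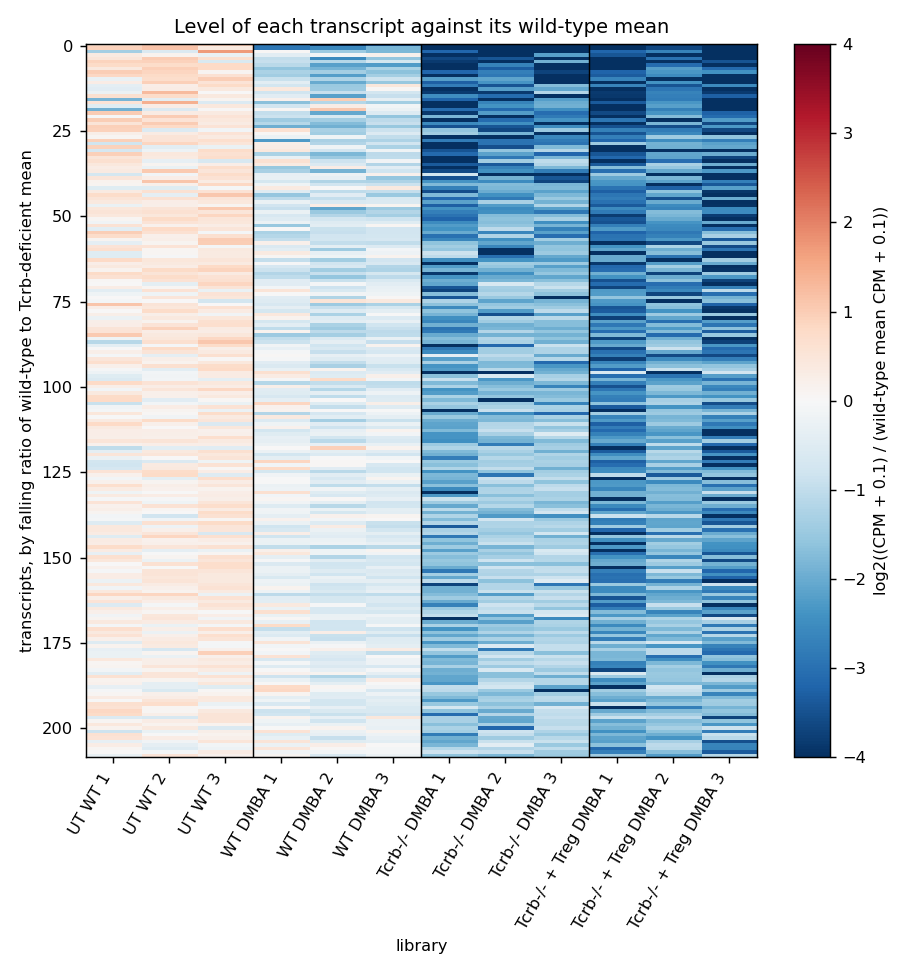
Each line is 1 of the 209 transcripts, ordered by falling ratio of WT to Tcrb-deficient mean, each column is a library, and the color is log2 of CPM + 0.1 against the WT mean, shown from -4 to 4. UT WT columns are mostly above the WT mean, WT DMBA columns mostly somewhat below it, and the Tcrb-deficient columns are lowest, with the estimates of 0 as the darkest cells.

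With treatment matched, the ratio to Tcrb-/- was smaller than the pooled median of 3.96, while the ratio to Tcrb-/- + Treg was not. The ratio of WT DMBA to Tcrb-/- means had a median of 2.53 over the 209, with quartiles of 2.04 and 3.51 and a range of 1.35 to 25.7. It was 2 or more in 162 transcripts, 3 or more in 74 (35.4%), 5 or more in 25 and 10 or more in 8. The ratio of UT WT to Tcrb-/-, where treatment differs as well, had a median of 4.24 and was 3 or more in 167. The ratio of WT DMBA to Tcrb-/- + Treg, where treatment is matched as well, had a median of 3.98 and was 3 or more in 147. The last 2 ratios each share a group with that of WT DMBA to Tcrb-/-, and all of them lie within what the rule used.

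The membership itself depended on the libraries used. When the rule was applied to the 9 libraries of DMBA-treated mice alone, it chose 363 transcripts, which included 97 of the 209. Without the WT DMBA libraries it chose 927, which included 194 of the 209. Without WT DMBA replicate 2, Tcrb-/- replicate 2 or Tcrb-/- replicate 3 it chose 377, 327 and 321, which included 205, 200 and 197 of the 209. Fewer of the 209 remained without Tcrb-/- + Treg replicate 1 (170), Tcrb-/- + Treg replicate 3 (176) or UT WT replicate 3 (176). With fewer libraries, non-overlap is reached more easily, so more transcripts can be chosen.

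**Figure D3:**
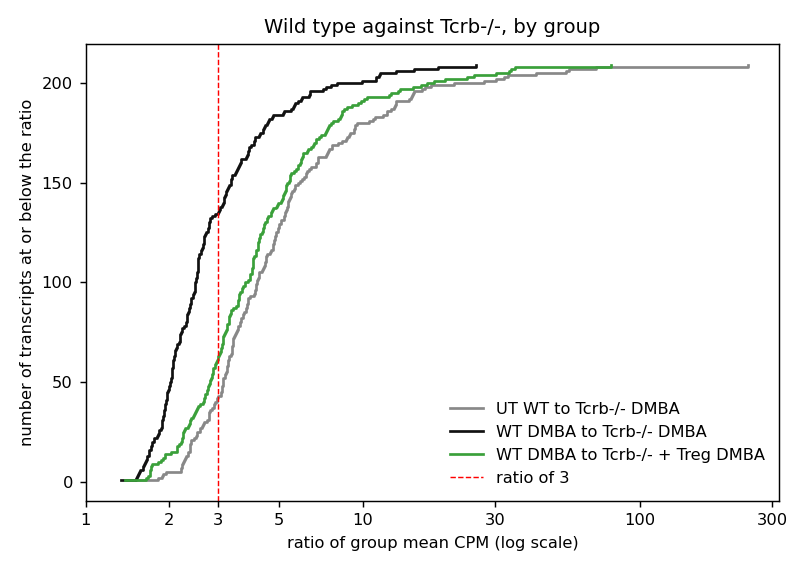
The number of the 209 transcripts (y axis) at or below a given ratio of group mean CPM (x axis, log scale) is drawn for 3 pairs of groups. The curve of WT DMBA to Tcrb-/- DMBA lies to the left, with 74 transcripts at a ratio of 3 or more, against 147 for WT DMBA to Tcrb-/- + Treg DMBA and 167 for UT WT to Tcrb-/- DMBA.

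The 2 transcripts with the highest ratios were lower in WT DMBA than in UT WT as well. MGP_FVBNJ_T0036441.1 (1494 nt, ratio 86.5) had 167, 216 and 206 CPM in UT WT, 14.0, 5.08 and 8.41 in WT DMBA, 0.409, 1.77 and 0.219 in Tcrb-/-, and 0.216, 3.92 and 0.585 in Tcrb-/- + Treg. Its level thus spanned 3 ranges without overlap, untreated WT, treated WT and Tcrb-deficient skin. MGP_FVBNJ_T0094820.1 (685 nt, ratio 26.1) had 21.8, 25.8 and 15.3 CPM in UT WT, 1.49, 1.85 and 3.17 in WT DMBA, 0.318, 0.492 and 0.351 in Tcrb-/-, and 0.173, 0.840 and 0.488 in Tcrb-/- + Treg, with the same 3 ranges. The Tcrb-deficient values of the second rest on 4 to 21 reads per library.

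WT DMBA and UT WT were compared to ask how skin with its αβ T cells differed after DMBA. The rule did not set these groups against each other, but it used all 6 WT libraries and compared them with Tcrb-deficient libraries that were all DMBA-treated. A transcript that is lower after DMBA in both genotypes therefore meets the rule more easily, and one that is higher less easily. Counts over the members are given as a description, and nothing about the members is read from their distance to the background. Of the 209 transcripts, 183 (87.6%) had a lower mean in WT DMBA than in UT WT, against 49.0% of all kept transcripts. In 119 (56.9%) all 3 WT DMBA libraries lay below all 3 UT WT libraries, against a background of 13.3%, and in 4 (1.91%) they all lay above, against 14.6%. The median log2 ratio was -0.79 over the members, with quartiles of -1.26 and -0.31, and 0.01 over the kept transcripts. The transcripts of the reversed rule were the mirror image, with a lower mean in WT DMBA in 10.9%, 92 of 184 higher and 2 lower without overlap, and a median log2 ratio of 1.52.

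In edgeR's quasi-likelihood test over 54539 transcripts, 7 of the 209 (3.35%) fell in WT DMBA and 0 rose (called when the adjusted p was under 0.01 and the fold above 2). The background was 0.0697% of all tested transcripts called lower and 0.161% called higher. Over the 30678 kept transcripts, from which the members come, it was 0.121% and 0.235%. At an unadjusted p under 0.05 the same test had 65 members (31.1%) lower and 1 higher, against 4.51% and 6.86% of all tested transcripts. DESeq2 called 31 members lower, which included the 7, and 0 higher, where it called 1.08% of all transcripts with an adjusted p lower and 2.48% higher. With the replicate number as a block (replicate block), edgeR called 1 member and 0.0330% of all tested transcripts, both directions together. Without any 1 library it called 1 to 4 members, the highest of these without WT DMBA replicate 1. The share of all tested transcripts was then 0.0225% to 0.115%, against 0.231% in the main fit. The number of calls therefore depended on the tool and on single libraries, over all transcripts as well as over the members.

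Among the 7, MGP_FVBNJ_T0067442.1 (4325 nt) had 77.5, 58.4 and 63.4 CPM in UT WT and 8.35, 16.3 and 16.9 in WT DMBA. Its log2 fold change was -2.24 (SE 0.29, adjusted p = 0.00680, edgeR). Its 6 Tcrb-deficient libraries had 4.32 to 7.16 CPM, just under the lowest WT DMBA value. MGP_FVBNJ_T0059362.1 (6396 nt) had 38.5, 40.1 and 58.4 CPM in UT WT and 14.9, 6.47 and 10.2 in WT DMBA, a log2 fold change of -2.12 (SE 0.27, adjusted p = 0.00680, edgeR). In Tcrb-/- it had 5.30, 4.87 and 6.15 CPM and in Tcrb-/- + Treg 4.79, 4.35 and 4.73, and WT DMBA replicate 2 was close to these.

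The other 5 had log2 fold changes of -1.82 to -1.44, and their transcripts were 2096 to 4326 nt long. The member of 3976 nt had 218, 236 and 210 CPM in UT WT, 69.5, 48.3 and 68.2 in WT DMBA, 27.2, 35.0 and 33.6 in Tcrb-/-, and 26.9, 35.9 and 28.4 in Tcrb-/- + Treg. It was called in WT DMBA in all 13 alternative settings, with the replicate block as well (edgeR or DESeq2 adjusted p at most 0.00910). The remaining 6 were called in 5 or 6 of the 13, and none of them with the replicate block. In the 6 fits without 1 library, each of them was called 0 or 1 times. 1 of the 13 settings is the main fit at an adjusted p under 0.05 with no fold, which a called transcript must pass. The member of 4326 nt was the only one of the 7 that was higher in Tcrb-/- + Treg than in Tcrb-/- without overlap, with 9.74, 9.38 and 10.9 CPM against 6.32, 8.36 and 6.91.

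The 2 transcripts of the highest WT ratio were not called by edgeR, although their difference within WT was larger than that of the 7. MGP_FVBNJ_T0036441.1 had a log2 fold change of -4.42 (SE 0.89, adjusted p = 0.0428, edgeR), and MGP_FVBNJ_T0094820.1 one of -3.25 (SE 0.54, adjusted p = 0.0178, edgeR). Both were among the 31 that DESeq2 called. The next by ratio, members of 2557 and 2810 nt, overlapped between WT DMBA and UT WT. The 1700-nt transcript with the most reads, whose 3 WT DMBA values all lay below its UT WT values, was called lower by DESeq2 and not by edgeR.

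4 members were higher in WT DMBA than in UT WT without overlap, and none of them was called. MGP_FVBNJ_T0040349.1 (2390 nt) had 21.1, 31.97 and 31.7 CPM in UT WT and 43.5, 83.7 and 47.5 in WT DMBA, a log2 fold change of 1.08 (SE 0.57, adjusted p = 0.494, edgeR). MGP_FVBNJ_T0092126.1 (2120 nt) had 9.45, 10.5 and 14.0 CPM in UT WT and 28.3, 16.1 and 15.8 in WT DMBA, a log2 fold change of 0.83 (SE 0.33, adjusted p = 0.364, edgeR). Both had lower values after Treg transfer. The first went from 18.9, 19.8 and 17.03 CPM in Tcrb-/- to 1.38, 10.02 and 2.39 in Tcrb-/- + Treg, with an adjusted p of 0.369 in edgeR. The second went from 5.50, 5.97 and 6.47 CPM to 1.54, 3.63 and 2.23, with an adjusted p of 0.293 in edgeR.

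**Figure D4:**
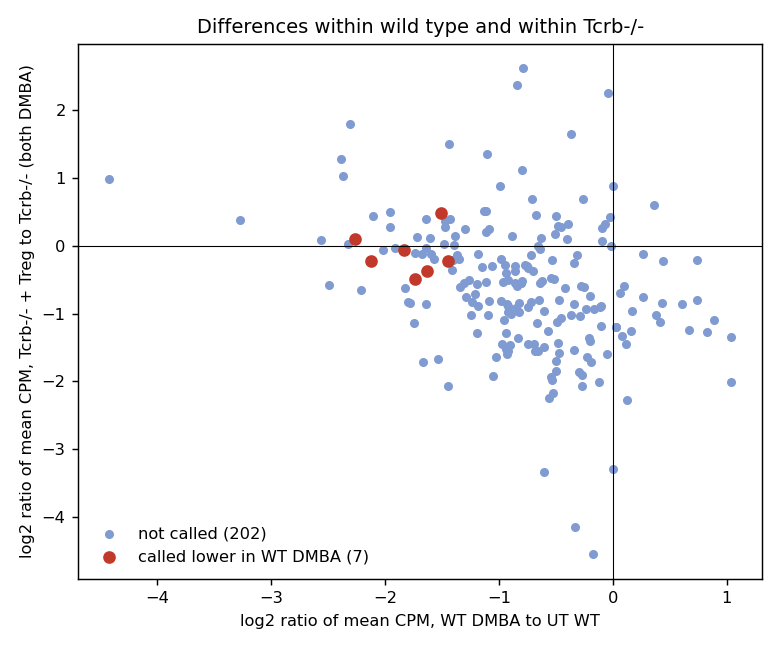
Each point is 1 of the 209 transcripts, with the log2 ratio of mean CPM of WT DMBA to UT WT on the x axis and of Tcrb-/- + Treg to Tcrb-/- on the y axis, and red points are the 7 that edgeR called lower in WT DMBA. Most points lie left of 0 (183) and below 0 (158), and the red points run from -2.26 to -1.44 horizontally and lie near 0 vertically.

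Tcrb-/- + Treg and Tcrb-/- were compared to ask how skin that lacked αβ T cells differed after Treg transfer. The rule required every Tcrb-/- + Treg library to lie below every WT library, so a transcript that returned to its WT level after transfer could not be a member. The values below are a description of transcripts chosen in this way, and they do not show whether Tregs brought transcripts back toward WT. In 158 of the 209 (75.6%) the mean was lower than in Tcrb-/-, against 54.2% of kept transcripts, and the median log2 ratio was -0.59, with quartiles of -1.14 and -0.01, against -0.04 over the kept transcripts. In 39 (18.7%) all 3 Tcrb-/- + Treg libraries lay below all 3 Tcrb-/- libraries, against a background of 10.1%, and in 4 (1.91%) they lay above, against 4.22%. In the reversed rule the median log2 ratio was 0.62.

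No member was called in this comparison by edgeR's quasi-likelihood test. The background was 0.011% of all tested transcripts called lower and 0.00367% called higher, and 0.0163% and 0% of kept transcripts. At an unadjusted p under 0.05, 36 members (17.2%) were lower and 4 (1.91%) higher, against 4.09% and 2.88% of all tested transcripts, and DESeq2 called 8 lower and 0 higher, where it called 1.86% of all transcripts with an adjusted p lower and 0.332% higher. Leaving out Tcrb-/- + Treg replicate 2 gave 3 edgeR calls among the members, all lower, where 0.123% of all transcripts were called. It also gave 88 members lower and 9 higher without overlap, against 17.3% and 7.65% of kept transcripts with the same libraries. Leaving out Tcrb-/- replicate 1 gave 81 lower and 6 higher, against 18.8% and 9.60%. With 2 libraries against 3, non-overlap is reached more easily.

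The median member also varied more between replicates in Tcrb-deficient skin than the median kept transcript did. The median coefficient of variation within a group was 21.0% in UT WT, 21.8% in WT DMBA, 41.0% in Tcrb-/- and 57.6% in Tcrb-/- + Treg. Over all kept transcripts it was 25.4%, 21.8%, 27.6% and 29.0%. The rule chose the members by these same CPM values, so their spread is given as a description. The lower read numbers of the members in Tcrb-deficient libraries move with this spread, and their part in it was not tested.

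The 2 lower members named for the Treg comparison were chosen by fold change and rested on few reads. This did not hold for every member. Another that DESeq2 called lower had 232, 143 and 347 reads in Tcrb-/- and 61, 77 and 25 in Tcrb-/- + Treg. Its log2 fold change was -2.15 (adjusted p = 0.0614, edgeR). MGP_FVBNJ_T0074871.1 (1585 nt) had 0.564, 2.35 and 3.16 CPM in Tcrb-/- and 0, 0 and 0.260 in Tcrb-/- + Treg, beside 4.51 to 12.2 CPM in UT WT and 4.26 to 9.84 in WT DMBA. Its log2 fold change was -4.51 (SE 1.20, adjusted p = 0.257, edgeR), and DESeq2 called it. MGP_FVBNJ_T0083037.1 (3559 nt) had 0.825, 0.492 and 0.203 CPM in Tcrb-/- and 0.0864, 0 and 0 in Tcrb-/- + Treg, with a log2 fold change of -3.84 (SE 1.16, adjusted p = 0.361, edgeR). In Tcrb-/- + Treg these were at most 5.33 and 2.001 reads per library, so the fitted folds rest on few reads.

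Of those that were higher after Treg transfer without overlap, MGP_FVBNJ_T0045929.1 (1348 nt) had 0, 0.105 and 0.104 CPM in Tcrb-/- and 0.481, 0.329 and 0.257 in Tcrb-/- + Treg. Its log2 fold change was 2.50 (SE 0.97, adjusted p = 0.636, edgeR). MGP_FVBNJ_T0034431.1 (2563 nt) had 0, 0.813 and 0.371 CPM in Tcrb-/- and 0.982, 1.08 and 1.63 in Tcrb-/- + Treg, with a log2 fold change of 1.74 (SE 0.99, adjusted p = 0.722, edgeR). WT libraries had 0.608 to 2.76 CPM of the first and 1.97 to 3.70 CPM of the second, so both stayed under the WT range, as the rule requires.

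**Figure D5:**
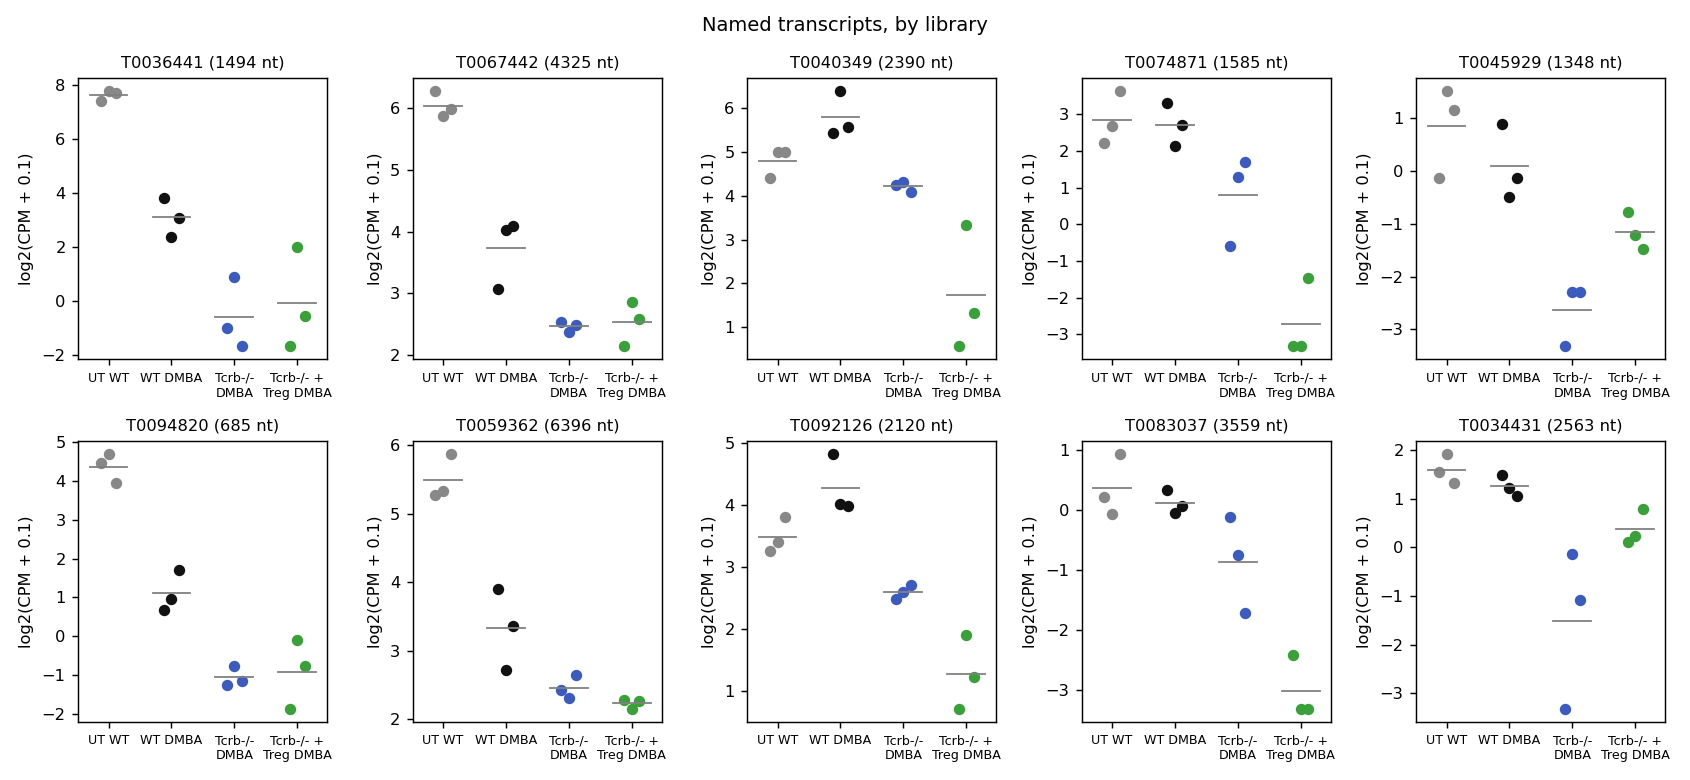
log2 of CPM + 0.1 of the 10 transcripts named by identifier (the shared prefix is left out) is plotted by library (points) and group, with lines at group means of the log2 values. From left to right the columns hold the highest WT ratios, those lower in WT DMBA, higher in WT DMBA, lower in Tcrb-/- + Treg and higher in Tcrb-/- + Treg.

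Ordering the 4 group means sorted the members into 4 patterns. In 134 (64.1%) they fell from UT WT over WT DMBA and Tcrb-/- to Tcrb-/- + Treg, an order that 13.4% of kept transcripts had, whose middle step the rule fixes and whose other steps it bears on. In 49 the WT part was the same but Tcrb-/- + Treg lay above Tcrb-/-, in 24 WT DMBA lay above UT WT and Tcrb-/- above Tcrb-/- + Treg, and in 2 both steps were turned. Across the 209 transcripts the log2 ratios of WT DMBA to UT WT and of Tcrb-/- + Treg to Tcrb-/- had a Pearson r of -0.34 and a Spearman rho of -0.36. These ratios share no library, but the members were chosen on the values of both, and transcripts are not independent replicates.

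By reads the members were mostly low. The WT mean was under 1 CPM in 4, from 1 to under 10 in 122, from 10 to under 100 in 74 and 100 or more in 9, with a median of 7.62 CPM. CPM is not divided by length, so it orders transcripts by reads and not by molecules. Members were 266 to 13159 nt long, with a median of 2454 nt against 2301 nt for kept transcripts and 1639 nt for those of the reversed rule.

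Salmon divides reads that match several transcripts, which leaves estimates that are not whole numbers. In 33 members (15.8%) the estimate was whole in each of the 12 libraries (tolerance 0.01), against 5.15% of kept transcripts. In these 33 the median log2 ratio of WT DMBA to UT WT was -0.94, with 24 lower and 1 higher without overlap, where 19.7% and 21.8% of the 1580 kept transcripts with whole estimates were lower and higher. Their median for Tcrb-/- + Treg to Tcrb-/- was -0.62, with 7 (21.2%) lower and 1 higher, against 21.3% and 3.35% of the same 1580. Both medians thus had the sign they had over all members. Medians over the 1580 were not computed, and in the Treg comparison the share lower was near that of the 1580. None of the 7 called transcripts was among the 33, so divided reads entered each of them in at least 1 library. In 3 members an estimate of 0 stood beside replicates that were both above 5 CPM, and none of the 3 had whole estimates. The member of 7149 nt was 1 of them, with 32.7, 0 and 50.4 CPM in Tcrb-/- + Treg.

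Some members had near neighbours by identifier number. 31 of the 209 (14.8%) had another member within 5 numbers, against 2.31% of kept transcripts that had a member so near. In the reversed rule the share was larger, with 80 of 184 (43.5%) near another transcript of that rule. Of the members, 5 (2.39%) had a transcript of the reversed rule so near, against 2.01% of kept transcripts. The 31 members with a member so near formed 14 runs of up to 4. Within each of the 14 all members lay on the same side of 0 in WT DMBA against UT WT, where 87.6% of all members lay below 0. In Tcrb-/- + Treg against Tcrb-/-, 7 of the 14 runs had members on both sides of 0. The run of 4 held the 3976-nt transcript described above and those of 3445, 2245 and 2956 nt, with log2 ratios of -1.83, -1.11, -0.54 and -2.37. Another held transcripts of 1221 and 1224 nt, with WT to Tcrb-deficient ratios of 7.30 and 18.1. The files do not say whether near numbers are isoforms, copies or neighbours in the genome, so such members may share reads.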

How the data were processed

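Skin RNA of 12 libraries was analysed, 3 per group. The authors quantified reads with Salmon 1.5.2 on FVB/NJ cDNA, after CASAVA 1.8.4 and with FastQC 0.12.1, MultiQC 1.11 and Picard for quality (submitters' processing notes), and deposited an estimated count (expected count, not normalized), a TPM value and lengths for each of 85565 transcripts per library. Gene-level steps of the study were not used here. The 209 members and all lists were chosen with earlier results of these data known. CPM was computed from the estimated counts. Rounded estimated counts of the 54539 transcripts with at least 10 reads in all were fitted in R 4.3.3 with edgeR 4.0.16 (TMM, 12 libraries, quasi-likelihood F test, Benjamini-Hochberg, common dispersion 0.818), and the fit was checked on simulated counts. Standard errors are the log2 fold change over the square root of F. A call needs an adjusted p under 0.01 and a fold above 2. Alternatives were DESeq2 1.42.0, other scalings, filters and thresholds, the replicate number as a block, and leaving out libraries. Transcripts named by identifier are the 2 of highest WT to Tcrb-deficient ratio and, in each tested comparison, 2 higher and 2 lower (called first, then without overlap, by fold change). Lists of T cell, hair follicle, epidermis, muscle, fat and sebaceous gland genes could not be looked up. Figures used matplotlib 3.10.9 in Python 3.11.15.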

Additional observations from a re-analysis of the deposited data

How the results depend on the processing

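The number of members was 558 with a ratio of 2 or more, 102 with 4 or more, 136 with TMM-scaled CPM (all among the 209), and, in settings chosen after seeing the data, 363 on the 9 DMBA libraries and 927 without the WT DMBA libraries. Leaving out 1 library gave 188 to 377. Members called in WT DMBA against UT WT were 7, and 15 at an adjusted p under 0.05 with no fold. They were 31 in DESeq2, 1 with the replicate block and 1 to 4 without 1 library. In the same order, the shares of all tested transcripts called in both directions were 0.231%, 1.14%, 2.26%, 0.0330% and 0.0225% to 0.115%. In Tcrb-/- + Treg against Tcrb-/- members called were 0, and 8 in DESeq2, 0 with the replicate block and 0 to 3 without 1 library. The shares here were 0.0147%, 1.35%, 0% and 0% to 0.123%. Both DESeq2 shares in this paragraph are of all 54539 transcripts, while those given earlier are of transcripts with an adjusted p (34705 within WT and 33721 for the Treg comparison). Without 1 library, 52 to 97 members in place of 43 did not overlap. Of these, 40 to 88 were lower and 6 to 12 higher, against 12.3% to 18.8% and 7.14% to 11.1% of kept transcripts. The cause was not tested, except that fewer libraries make non-overlap easier. Deviations of libraries with the same replicate number correlated at -0.042 to 0.160, within the -0.157 to 0.165 of libraries with other numbers. Replicate numbers were therefore not taken as pairs. The median log2 ratios were -0.89 to -0.67 within WT and -1.06 to -0.46 within Tcrb-deficient skin without 1 library. No change of direction was seen in the alternatives run for the median ratios, the counts without overlap, the calls within WT or the members named for a tested comparison. Calls in the Treg comparison had no direction in the main fit. The 2 members of highest WT ratio were not followed in this way. Depth limits the Tcrb-deficient values, where up to 78 of the 209 had under 10 reads in a library.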
